A study of Mus musculus with 50 samples.

Results

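Gastrocnemius muscle of 8 mice aged 24 months was compared with that of 8 mice aged 8 months, the pair of ages that spans the step from adult muscle to the early phase of sarcopenia, in which muscles shrink and weaken with age. These 16 mice were taken by their age labels from a series of 50 mice of 6 ages between 8 and 28 months, and 12586 of the 23880 genes in the table were tested, namely those that reached 1 CPM in 8 or more of the 50 mice, CPM being a gene's count scaled to a common library total. All animals were wild type males of the strain C57BL/6JRj, kept in single cages, with 1 RNA-seq library of the whole muscle per mouse. Animals with overt illness or tumours had been left out by the study, so the old group holds the mice that reached 24 months in apparent health. Both ages ate the purified AIN93M diet before dissection, but the 8-month mice had changed to it as young adults and the 24-month mice late in adult life, so age and diet history cannot be told apart. A level here is the CPM with library totals corrected by edgeR's TMM factors. A difference is a log2 fold change of 24 against 8 months with its standard error, and a gene passed the test where the adjusted p of edgeR's quasi-likelihood test (Benjamini-Hochberg) was below 0.01.

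A muscle fibre is contacted by a motor neuron at the neuromuscular junction, where acetylcholine opens a receptor built from subunits that include Chrna1 and Chrnb1. Fibres that lose this contact are known to switch on receptor subunit genes and a set of response genes along the whole fibre, under control of factors that bind E-boxes in their promoters. Around the fibres lies a connective tissue of fibrillar collagens and proteoglycans that is made and renewed by fibroblasts, and fat cells and immune cells lie between the bundles.

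In all, 77 of 12586 genes passed the test (0.612%), of which 40 were higher at 24 months (0.318%) and 37 were lower (0.294%). Of these genes, 31 changed by at least 2-fold, 19 upwards and 12 downwards, and the median size of the change over the 77 was 0.91 on the log2 scale. The median difference of all tested genes was -0.01. At an adjusted p below 0.05 there were 331 genes, 143 of them higher and 188 lower. Across the whole table, the 2 ages did not overlap in any mouse for 89 genes (0.707% of those tested), with 42 higher at 24 months and 47 lower. Of the 77 genes that passed the test, 36 were separated in this way and 41 had at least 1 mouse within the range of the other age. The number depended on the test, with 150 genes when the 16 mice were fitted alone, 178 with edgeR's likelihood ratio test and 190 with DESeq2. With limma on log2(TPM + 0.1) the split was 48 higher to 28 lower genes. With 1 mouse left out at a time, between 47 and 87 genes passed, the lowest number being reached without 8-month mouse 7. Of the lower genes 18 were left without 8-month mouse 7, 21 without 24-month mouse 8, 23 without 8-month mouse 4 and 24 without 24-month mouse 1. Of the 77 genes, 46 were lost in at least 1 of the 27 alternative fits, 36 of them when a mouse was left out. The other 31 passed in each, among them Chrna1, Amy1, Sh3rf2, Kcnab1, Ccl8, Jchain, S100a9, Col3a1, Col5a2, Sparc, Gsn, Scd2, Srebf1 and Pon1.

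**Figure D1:**
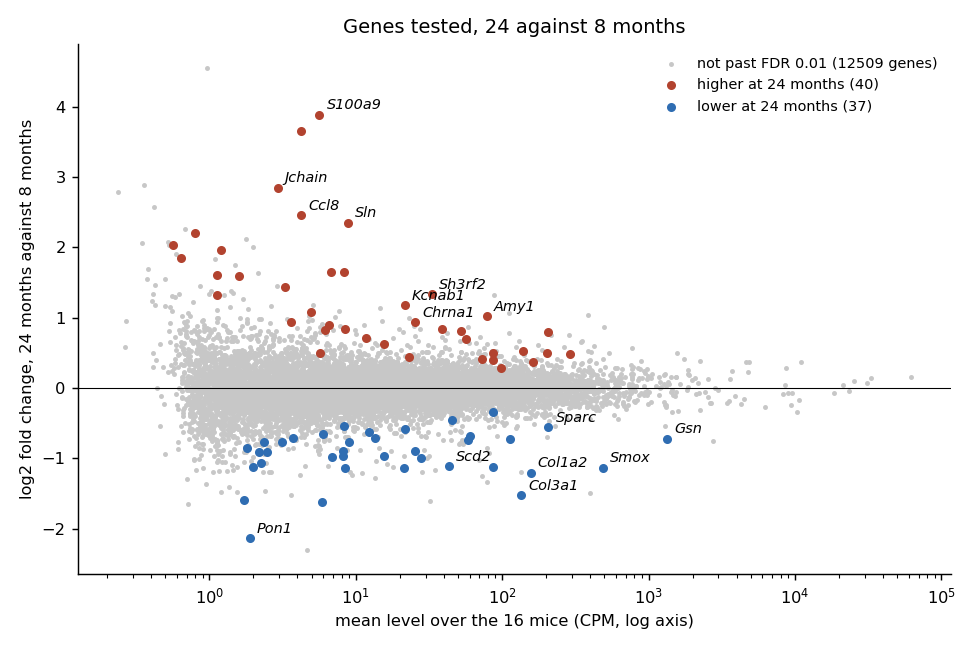
Each point is 1 of the 12586 genes tested, with its mean level over the 16 mice in CPM on a log axis and its log2 fold change of 24 against 8 months. The 40 genes higher at 24 months are red, the 37 lower ones are blue, and the grey genes did not pass an adjusted p of 0.01, some of them with fold changes as large.

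Between 13607229 and 17321777 counts were available per mouse at 24 months and between 15042861 and 20515435 at 8 months. Mean depth was lower at 24 months (p = 0.00653 by a two-sided exact permutation test), although the ranges overlapped. With every library thinned to the smallest total, 76 genes passed. For the number of genes with a count no difference of means was found, with 16561 to 17414 at 24 months and 16657 to 17576 at 8 months (exact permutation test, two-sided, p = 0.459). The tissue label held against its markers. The 10 skeletal muscle fibre markers summed to between 141000 and 186000 CPM at 24 months and between 141000 and 184000 CPM at 8 months, and none of the 10 passed the test.

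The gene of the junction that rose was Chrna1 (chromosome 2 of GRCm38 at 73563215 to 73580338, minus strand, in GENCODE vM21), the alpha subunit of the muscle acetylcholine receptor. Its promoter is shown because the gene was separated between the ages, and that of Chrnb1, the beta subunit of the same receptor, is shown beside it. Both are the 250 bases before the RefSeq transcript start (GRCm38.p6), minus strand, written 5′ to 3′, from chr2:73580339-73580588 and chr11:69795938-69796187, with every E-box (CANNTG, which reads the same on both strands) in capitals.
Chrna1: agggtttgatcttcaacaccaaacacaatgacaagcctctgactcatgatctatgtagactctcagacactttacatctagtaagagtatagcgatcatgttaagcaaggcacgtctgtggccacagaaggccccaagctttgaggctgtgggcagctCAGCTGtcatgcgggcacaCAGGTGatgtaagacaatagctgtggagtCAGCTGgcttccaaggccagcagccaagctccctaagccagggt
Chrnb1: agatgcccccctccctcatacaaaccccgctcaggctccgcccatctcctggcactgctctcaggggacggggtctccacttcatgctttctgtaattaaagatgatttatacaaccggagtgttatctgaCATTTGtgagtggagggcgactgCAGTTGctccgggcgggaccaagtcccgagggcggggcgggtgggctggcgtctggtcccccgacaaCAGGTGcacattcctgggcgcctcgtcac
The Chrna1 window held 3 E-boxes, 92, 73 and 44 bases before the start, and 2 of them read CAGCTG. The Chrnb1 window also held 3, at 119, 96 and 29 bases, none of them CAGCTG. Such matches are common, since 66.2% of the 32851 mouse promoter windows of this length held CANNTG and 13.0% held CAGCTG. Among the 42 windows of the genes higher at 24 months the share with CANNTG was 66.7%, and among the 41 windows of the lower genes it was 70.7%. For CAGCTG the shares were 16.7% in the windows of the higher genes and 22.0% in those of the lower genes. Of the 77 genes that passed, 62 had an entry in this promoter table.

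Chrna1 lay between 15.1 and 22.1 CPM at 8 months, with a median of 17.6, and between 23.9 and 55.3 CPM at 24 months, with a median of 31.1. Every old mouse was above every young mouse, and the gene rose by 0.94 ± 0.15 on the log2 scale (adjusted p = 1.84e-04). Chrnb1 had a range of 24.8 to 35.9 CPM at 8 months and of 31.3 to 61.5 CPM at 24 months. Its difference of 0.47 ± 0.13 did not pass (adjusted p = 0.0271), and 5 of the 8 old mice were above the young range. Chrng, the subunit of the fetal receptor form, was too low to be tested, with at most 0.0612 CPM in a young mouse and 1.29 CPM in an old one. Of the 16 tested genes of the acetylcholine receptor and junction list, Chrna1 alone passed, and the median difference was 0.06. Among its clustering and anchoring genes, Musk, the receptor kinase of the junction, had a difference of 0.40 (adjusted p = 0.356), Rapsn, which anchors the receptor, one of 0.07 (adjusted p = 0.734) and Agrn, the nerve-derived organizer, one of 0.00 (adjusted p = 0.999). Ric3, a chaperone of acetylcholine receptor assembly that was outside the list and is named after its value was seen, rose by 0.50 ± 0.11, from 3.49 to 5.74 CPM at 8 months to 5.70 to 8.12 CPM at 24 months (adjusted p = 6.83e-03). Its lowest old mouse lay within the young range, and the gene was lost in 15 of the 27 alternative fits (highest adjusted p = 0.0254).

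Sln, sarcolipin, a small inhibitor of the sarcoplasmic calcium pump, is known to rise in denervated muscle. It ranged from 0.795 to 5.96 CPM at 8 months, with a median of 2.33, and from 6.72 to 45.5 CPM at 24 months, with a median of 8.11. No old mouse overlapped the young range, with 5 of the 8 old mice between 6.72 and 8.38 CPM, mouse 5 at 14.3, mouse 8 at 21.0 and mouse 1 at 45.5 CPM. The rise was 2.35 ± 0.42 on the log2 scale (adjusted p = 7.06e-04), a ratio of means of 5.1. Sln was the single member of the denervation and reinnervation list that passed, out of 19 tested. In that list 18 of the 19 were above 0, against 48.6% of all genes tested. The median difference was 0.76 against -0.01 for all genes. The 19 were measured in the same 16 libraries and are not independent of each other. Members short of the threshold were Runx1, a transcription factor of denervated fibres, with 2.37 to 4.16 CPM at 8 months and 4.04 to 18.1 CPM at 24 months and a difference of 1.18 ± 0.28 (adjusted p = 0.0122), and Krt18, a keratin filament gene, with 0.295 to 0.945 CPM and 0.575 to 7.34 CPM and a difference of 2.11 ± 0.50 (adjusted p = 0.0136). Myog, a myogenic factor that binds E-boxes, differed by 0.43 (adjusted p = 0.519) and Ncam1, a cell adhesion molecule of denervated fibres, by 0.03 (adjusted p = 0.921). In the same mice 9 of 11 Schwann cell and nerve markers, a list that also holds Ncam1, were below 0, with a median of -0.46 and none past the threshold, and their sum was 108 to 349 CPM at 8 months and 111 to 231 CPM at 24 months. Of 9 immediate early response genes, which react within minutes to activity or handling of tissue, 8 were below 0, with a median of -0.69 and none past the threshold. Their sum was 298 to 678 CPM at 8 months and 212 to 416 CPM at 24 months, below the young range in 5 old mice, and Junb is listed at 0 in all 16. The part of nerve tissue and of early response in the denervation values was not tested.

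The 24-month mice differed from each other in these genes. Taking for each mouse the median over the 19 list members of log2(CPM + 0.5) against the 8-month mean, mouse 1 stood at 1.10, mouse 3 at 0.83 and mouse 2 at 0.69, while the other old mice lay between 0.13 and 0.41. The young mice lay between -0.33 and 0.27 on this scale. Mouse 1 was the highest of the 8 old mice for 9 of the 19 genes, and it was also the highest for Chrna1 at 55.3 CPM. Leaving out mouse 1 left Sln and Chrna1 past the threshold. Sln missed it with a replicate block in the 16 mice (adjusted p = 0.0122), whereas Chrna1 passed in all 27 alternative fits.

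**Figure D2:**
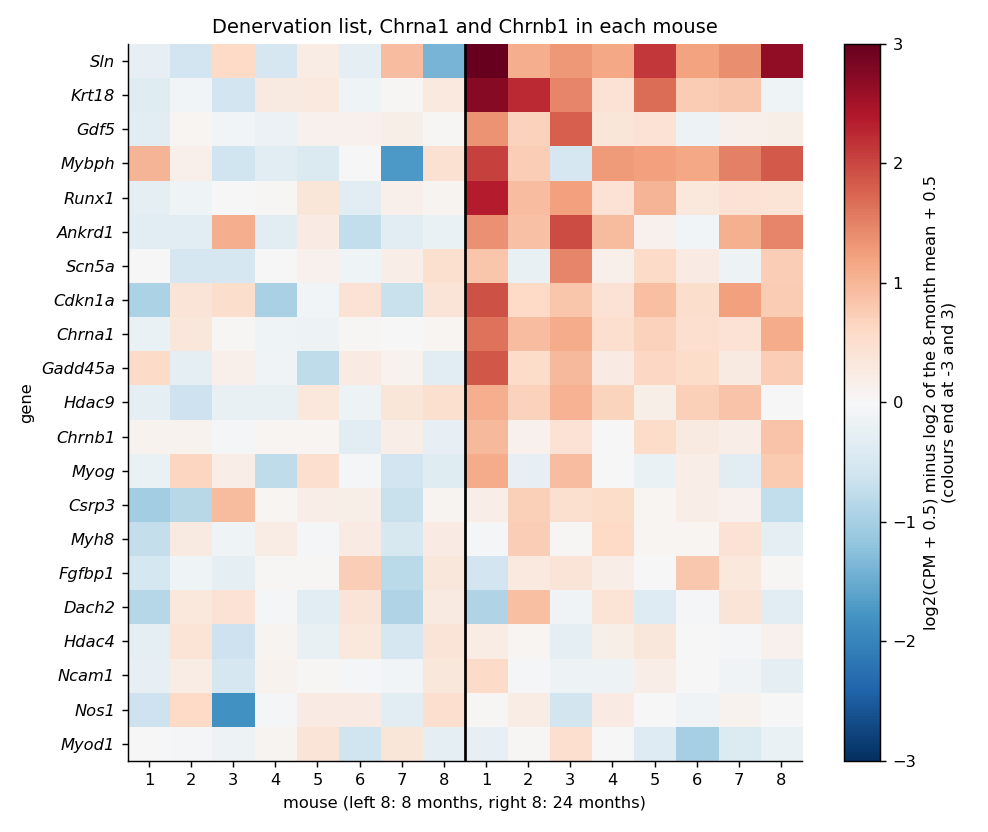
Colour gives log2(CPM + 0.5) of each mouse minus log2 of the 8-month mean plus 0.5, for the 19 tested members of the denervation list and for Chrna1 and Chrnb1, in the 8 young mice (left) and the 8 old mice (right). Red cells gather in the old mice for the upper genes, most of all in 24-month mouse 1, and are few for Myod1, Nos1, Ncam1 and Hdac4 at the bottom.

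Of the 21 tested genes of potassium, sodium and chloride channels 1 passed, and the median difference was 0.05. This gene, Kcnc4, a voltage-gated potassium channel, went from 35.4 to 55.6 CPM at 8 months to 48.5 to 89.3 CPM at 24 months, a rise of 0.70 ± 0.15 (adjusted p = 4.40e-03) with overlap of the ages. It missed the threshold without 8-month mouse 2, 7 or 8 or 24-month mouse 1, 4 or 8 (highest adjusted p = 0.0173). The next 5 genes were in no list and are given because they passed. Kcnab1, an auxiliary subunit of potassium channels, ranged from 6.24 to 18.8 CPM in young and from 21.3 to 40.5 CPM in old mice, and rose by 1.18 ± 0.23 (adjusted p = 1.88e-03). These ranges did not overlap. Sh3rf2, a ubiquitin ligase with SH3 domains, moved from 15.5 to 22.2 CPM to 31.9 to 67.9 CPM, without overlap, and rose by 1.33 ± 0.20 (adjusted p = 1.79e-04). Ppp1r1a, an inhibitor of protein phosphatase 1, rose by 0.84, Prkcz, an atypical protein kinase C, by 0.94, and Adcy2, an adenylyl cyclase, by 0.41. The calcium handling list held 1 gene that passed, Sln again, of 24 tested, with a median difference of 0.08. Pln, the phospholamban relative of Sln, had a difference of 0.97 ± 0.26 (adjusted p = 0.0309) and Casq2, the slow-fibre calsequestrin, one of 0.78 ± 0.21 (adjusted p = 0.0299). Atp2a1, the fast-fibre calcium pump itself, had a difference of 0.14 (adjusted p = 0.451).

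The lowest p of all belonged to Amy1, an amylase that splits starch and glycogen (chromosome 3 of GRCm38 at 113555710 to 113606699, minus strand). Its levels were 43.7 to 65.6 CPM at 8 months, median 46.1, and 90.7 to 139 CPM at 24 months, median 99.6. The ages did not overlap, and the gene rose by 1.02 ± 0.10 (adjusted p = 2.97e-09), the ratio of means being 2.03. Amylase genes lie in a cluster of near-identical copies, so the estimated counts of Amy1 may include reads of its neighbours, and the same reserve holds for Gstm2, Aldh1a1, Myl12a and Gm7609, which have close relatives. Rhpn2, an adaptor protein gene, rose from 3.30 to 5.48 CPM to 8.17 to 21.5 CPM without overlap (1.65 ± 0.32, adjusted p = 1.77e-03). Emb, embigin, a partner of monocarboxylate transporters, rose from 1.95 to 4.87 CPM to 3.83 to 10.1 CPM, with overlap (1.08 ± 0.19, adjusted p = 5.03e-04). With a replicate block in the 16 mice Emb missed the threshold (adjusted p = 0.0115). Fam174b, a membrane protein gene, ranged from 1.96 to 7.38 CPM at 8 months and from 4.14 to 22.9 CPM at 24 months (1.65 ± 0.35, adjusted p = 4.20e-03), and it missed the threshold in 5 of the fits that left out a mouse.

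No slow fibre gene passed. The slow and oxidative fibre list had 17 tested genes with a median difference of 0.53 and 14 above 0. Myh7, the slow myosin heavy chain, lay between 58.1 and 402 CPM at 8 months and between 244 and 1080 CPM at 24 months, a difference of 1.04 ± 0.46 (adjusted p = 0.199). Only 3 of the 8 old mice were above the young range. The per-mouse list median ran from -0.19 to 1.25 at 24 months and from -1.05 to 0.93 at 8 months, and the 2 ages overlapped widely. The 19 fast glycolytic fibre genes had a median difference of -0.07, and none passed.

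Of 78 subunits of oxidative phosphorylation none passed, all 78 were below 0, and the median difference was -0.20 against -0.01 for all genes tested. The 78 were measured in the same 16 libraries and are not independent of each other. Their per-mouse median ran from -0.46 in mouse 1 to -0.05 in mouse 3 at 24 months and from -0.43 to 0.48 at 8 months, so all old mice lay within the young range except mouse 1. Mouse 1 was the lowest of the old mice for 63 of the 78. Cox7a1, a muscle subunit of cytochrome c oxidase, had 157 to 292 CPM at 8 months and 102 to 190 CPM at 24 months (-0.37 ± 0.19, adjusted p = 0.287), and Ndufc1, a complex I subunit, 113 to 220 CPM and 102 to 139 CPM (-0.28 ± 0.12, adjusted p = 0.176). The 21 citrate cycle genes had a median of -0.13 and the 30 genes of fatty acid uptake and oxidation one of -0.14, with none past the threshold in either list. The regulators of these programmes were not called either. Esrra, an orphan receptor that drives mitochondrial genes, had a difference of -0.32 (adjusted p = 0.271), Ppargc1a, its coactivator, 0.07 (adjusted p = 0.929), Ppargc1b -0.00 (adjusted p = 0.996), Esrrb 0.05 (adjusted p = 0.937), Esrrg 0.17 (adjusted p = 0.725) and Ppara, a fatty acid receptor, 0.21 (adjusted p = 0.731). Yy1, a zinc finger factor, stood at -0.03 (adjusted p = 0.886), Mlxipl, a carbohydrate response factor, at -0.19 (adjusted p = 0.364), Nfkb1, an inflammatory factor, at 0.08 (adjusted p = 0.613) and Spi1, a myeloid factor, at 0.54 (adjusted p = 0.381). Nr5a2 was under the filter, with at most 0.844 CPM in any of the 16 mice, and Yy2 was not analysed here.

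Genes of the extracellular matrix were among those that fell. The promoter of Col1a2, a chain of type I collagen, is shown for this group. It is the 250 bases before the RefSeq start on the plus strand (GRCm38.p6, chr6:4505368-4505617), with CCAAT, the core motif of the factor CBF, in capitals. The window lies inside the GENCODE gene, which begins at 4504814. Binding of CBF to this copy was not tested.
Col1a2: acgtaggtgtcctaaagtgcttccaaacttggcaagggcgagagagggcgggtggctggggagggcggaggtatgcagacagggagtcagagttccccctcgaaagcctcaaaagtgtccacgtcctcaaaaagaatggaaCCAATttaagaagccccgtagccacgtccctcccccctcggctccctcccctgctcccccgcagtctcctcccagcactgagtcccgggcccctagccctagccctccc
The single CCAAT, searched on both strands, begins 109 bases before the start, and 33.8% of all promoter windows held at least 1. Among the windows of the lower genes the share was 36.6%, and among those of the higher genes 31.0%.

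Of 26 collagen genes tested, 4 fell and none rose, with a median difference of -0.56 and 24 of the 26 below 0. Col3a1, the type III chain (chromosome 1 of GRCm38 at 45311538 to 45349706, plus strand), ranged from 144 to 227 CPM at 8 months, median 208, and from 28.5 to 97.7 CPM at 24 months, median 72.6. All old mice were below all young mice, and the gene fell by 1.53 ± 0.31 (adjusted p = 2.45e-03). Col1a2 ranged from 136 to 334 CPM and from 43.4 to 140 CPM, so that 7 of 8 old mice were below the young range, and it fell by 1.21 ± 0.27 (adjusted p = 7.84e-03). Col5a2, a chain of the type V collagen that sets fibril width, had 27.4 to 42.3 CPM in young and 14.0 to 25.0 CPM in old mice. It was separated and fell by 0.99 ± 0.16 (adjusted p = 1.84e-04). Its partner Col5a1 fell by 0.89 ± 0.20 (adjusted p = 8.49e-03), with overlap. Col1a2 and Col5a1 were near the threshold. Leaving out 1 mouse lost Col1a2 in 12 and Col5a1 in 14 of 16 fits, and both were lost with upper-quartile factors and with limma on TPM. Col1a1, the other type I chain, had 63.3 to 165 CPM and 15.9 to 71.5 CPM, and its difference of -1.26 ± 0.34 did not pass (adjusted p = 0.0295). The summed level of the 26 genes was 775 to 1400 CPM at 8 months and 337 to 833 CPM at 24 months, below the young range in 7 of 8 old mice. Of the tendon cell markers, 8 of 9 tested were below 0 as well, with a median of -0.40 and none past the threshold. Their sum was 255 to 616 CPM at 8 months and 246 to 466 CPM at 24 months, below the young range in 4 old mice. Of the defining tendon genes, Scx had 1.67 to 5.06 CPM in young and 2.70 to 6.44 CPM in old mice, and Tnmd 5.21 to 15.5 CPM and 3.26 to 11 CPM. The part of tendon in the collagen values was not tested.

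Among the partners of collagen, Sparc, a collagen-binding glycoprotein, fell by 0.55 ± 0.09, from 207 to 289 CPM to 152 to 187 CPM, without overlap (adjusted p = 2.41e-04). It was the only one of 25 tested proteoglycan and tendon matrix genes to pass, in a list with a median of -0.39 and 23 of 25 below 0. Dcn, decorin, which coats collagen fibrils, had a difference of -0.26 (adjusted p = 0.110). Nrep, a neuronal regeneration related gene of regenerating tissue, was at 100 to 137 CPM in young and 26.1 to 63.9 CPM in old mice, which did not overlap, yet its difference of -1.34 ± 0.32 missed the threshold (adjusted p = 0.0141). Kera, keratocan, a tendon proteoglycan, differed by -1.24 ± 0.33 (adjusted p = 0.0271). Adamts2, which cuts the amino-terminal propeptide of collagens, fell by 0.70 ± 0.14, from 11.2 to 21.7 CPM to 7.61 to 13.3 CPM with overlap (adjusted p = 2.45e-03), as the only one of 23 tested matrix proteases and inhibitors. It was lost in 2 of the fits that left out a mouse and with limma on TPM. Serpinh1, the collagen chaperone, had a difference of -0.74 (adjusted p = 0.0172) and Mmp2, a gelatinase, one of -0.59 (adjusted p = 0.0172). Dpt, dermatopontin, a matrix protein that binds decorin, fell by 0.73, and Olfml2b, a proteoglycan-binding olfactomedin, by 0.90. Of 11 markers of fibroblasts and fibro-adipogenic progenitors, 2 passed, both lower, Col3a1 and Gsn, and the median was -0.56. Their summed level was 2710 to 3770 CPM at 8 months and 1810 to 2360 CPM at 24 months, so that all old mice were below all young mice. Much of this sum was Gsn, with means of 1670 and 1010 CPM at these ages, so it largely repeats the call of that gene. The per-mouse median over the 11 fibroblast markers ran from -0.243 to 0.189 at 8 months and from -0.715 to -0.266 at 24 months. Gsn, gelsolin, an actin-severing protein that these cells express highly, fell by 0.72 ± 0.11, from 1380 to 2140 CPM to 798 to 1200 CPM, without overlap (adjusted p = 1.79e-04). Pdgfra, the receptor that defines the progenitors, had a difference of -0.38 (adjusted p = 0.0667), and Ly6a one of 0.04 (adjusted p = 0.884). In a whole muscle, fewer cells of a type and less RNA per cell cannot be told apart.

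**Figure D3:**
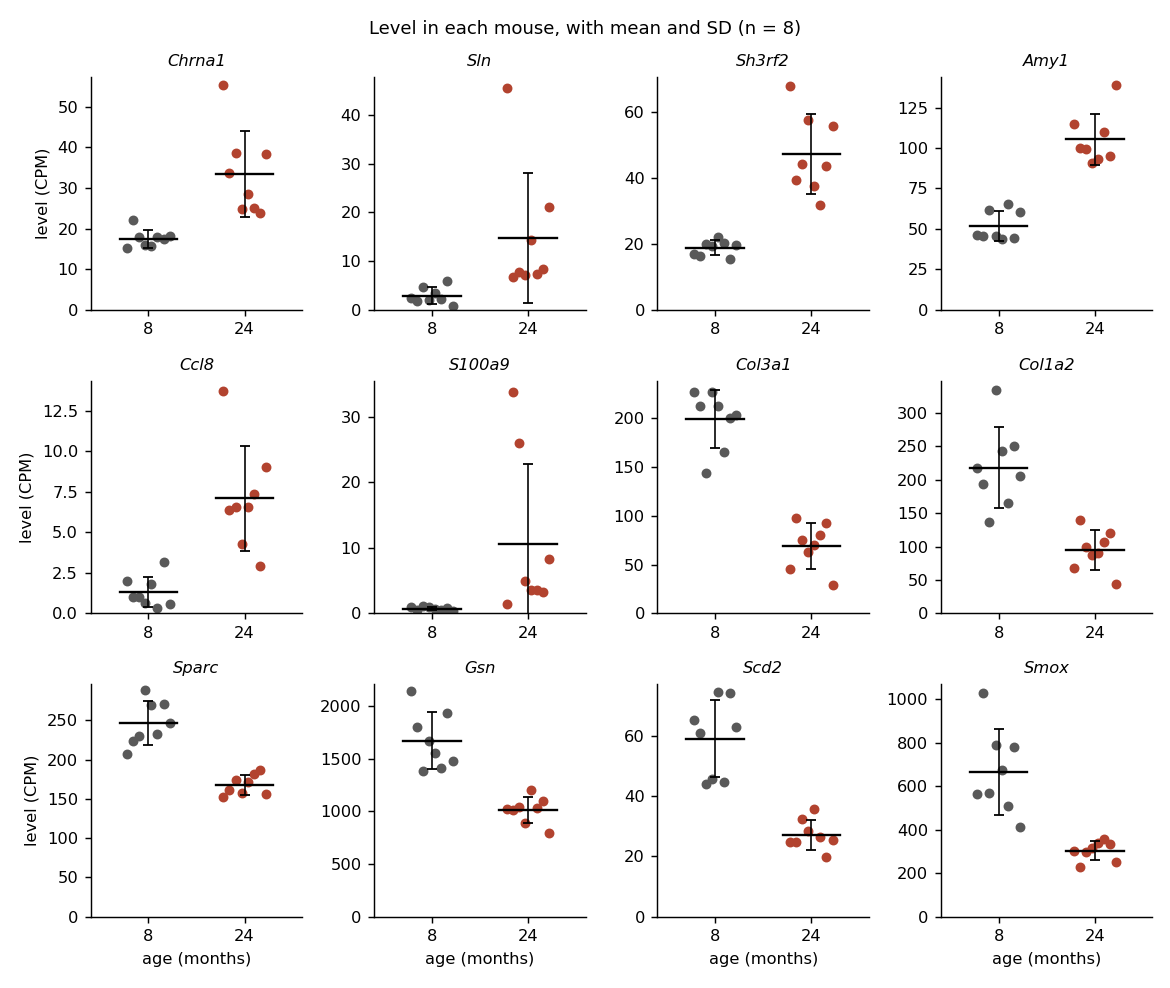
Points are the levels of 12 genes in CPM in each of the 8 mice per age, lines are means and bars are SD (n = 8). Chrna1, Sln, Sh3rf2, Amy1 and S100a9 are separated upwards and Col3a1, Sparc, Gsn, Scd2 and Smox downwards. S100a9 is far higher in 2 old mice than in the rest, and Ccl8 and Col1a2 each overlap in 1 old mouse.

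The next genes that fell were in no list and are given because they passed. Scd2, a stearoyl-CoA desaturase that makes monounsaturated fatty acids, had 44.0 to 74.4 CPM at 8 months, median 61.9, and 19.8 to 35.8 CPM at 24 months, median 25.9. The ages did not overlap, and the gene fell by 1.11 ± 0.18 (adjusted p = 2.41e-04). Srebf1, the factor that drives fatty acid synthesis genes, fell by 0.68 ± 0.13 from 54.9 to 93.9 CPM to 34.1 to 58.8 CPM, with 6 of 8 old mice below the young range (adjusted p = 1.77e-03). Pon1, a paraoxonase, fell by 2.13 ± 0.34, the steepest decrease of the genes that passed, from 1.28 to 4.46 CPM to 0.230 to 0.887 CPM without overlap (adjusted p = 1.84e-04). Hacd2, an enzyme of very long fatty acid elongation, fell by 0.71. None of the fat cell markers passed: of 10 adipocyte markers tested, all were below 0, with a median of -1.06, and their summed level was 297 to 502 CPM at 8 months and 190 to 361 CPM at 24 months. Adipoq, adiponectin, which defines fat cells, had 11.8 to 36.4 CPM and 3.79 to 18.1 CPM (-1.12 ± 0.29, adjusted p = 0.0208). The part of fat cells in the fall of Scd2, Srebf1 and Pon1 was not tested.

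Smox, spermine oxidase, which turns spermine into spermidine, fell by 1.13 ± 0.24, from 413 to 1030 CPM to 231 to 358 CPM, without overlap (adjusted p = 4.50e-03). It was the 1 of 11 polyamine genes that passed, and it missed the threshold without 8-month mouse 2, 4 or 7 or 24-month mouse 1, 2 or 8 (highest adjusted p = 0.0173). Amd1, which supplies the aminopropyl group for polyamine synthesis, was separated as well, at 2770 to 4410 CPM in young and 1440 to 2670 CPM in old mice, but its difference of -0.75 ± 0.27 did not pass (adjusted p = 0.107). Mettl21c, a muscle lysine methyltransferase, fell by 1.13 ± 0.23, from 70.3 to 176 CPM to 43.4 to 75.9 CPM, with 6 old mice below the young range (adjusted p = 2.45e-03). Neto2, an auxiliary subunit of glutamate receptors, fell by 1.13 ± 0.24 (adjusted p = 4.50e-03) and Angptl1, a secreted angiopoietin-like protein, by 1.13 ± 0.19 (adjusted p = 2.41e-04). Angptl1 was separated, at 9.73 to 14.5 CPM in young and 3.38 to 7.16 CPM in old mice. Thy1, a surface protein of fibroblasts and neurons, fell by 0.98 ± 0.21, Map3k7cl by 0.96 ± 0.21 and Oaf by 0.96 ± 0.21, with overlap for all but Oaf and each with adjusted p between 4.49e-03 and 6.76e-03. Of the 16 fits that left out a mouse, 8 lost Neto2, 7 lost Thy1, 10 lost Map3k7cl and 7 lost Oaf.

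Among immune genes the increases sat in a few transcripts at low level. Ccl8, a chemokine that attracts monocytes, went from 0.332 to 3.14 CPM, median 0.982, to 2.93 to 13.7 CPM, median 6.57, and rose by 2.45 ± 0.39 (adjusted p = 1.84e-04). In 7 of 8 old mice it was above the young range. It was the 1 of 22 chemokine and receptor genes that passed, in a list with a median of 0.27. Cxcl13, a B cell chemokine, had 0.441 to 1.29 CPM at 8 months and 0.830 to 8.69 CPM at 24 months (adjusted p = 0.186, the ratio of means being 4.16), and Ccr1, a receptor of monocytes and neutrophils, a difference of 1.35 (adjusted p = 0.0400). Jchain, the joining chain of secreted IgA and IgM, rose by 2.85 ± 0.58, from 0.332 to 1.62 CPM to 0.958 to 8.47 CPM (adjusted p = 2.56e-03), with 7 old mice above the young range. It was the only 1 of 9 B lymphocyte and plasma cell markers that reached the filter, and the 9 summed to 0.902 to 2.60 CPM at 8 months and 2.30 to 10.2 CPM at 24 months.

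S100a9 and S100a8, the calprotectin subunits that neutrophils carry in bulk, had the largest increases of all genes that passed, with levels far apart between the old mice. S100a9 was 0.298 to 1.08 CPM in young mice. In old mice 1 to 8 it was 1.48, 33.7, 25.9, 4.85, 3.54, 3.53, 3.20 and 8.26 CPM. All old mice were thus above the young range, with mice 2 and 3 several times higher than the rest, and the rise was 3.89 ± 0.67 (adjusted p = 3.16e-04). S100a8 showed the same mice high, at 23.6 and 21.4 CPM against 1.01 to 5.89 CPM in the other old mice (3.65 ± 0.71, adjusted p = 2.01e-03). With a replicate block in the 16 mice S100a8 missed the threshold (adjusted p = 0.0104). Csf3r, the receptor of granulocyte colony-stimulating factor, rose by 1.59 and was highest in old mouse 2, and it was lost in 10 of the 16 fits that left out a mouse. Across the neutrophil and mast cell list 2 of 6 tested markers passed, and the median was 0.04. Cpa3, a mast cell protease, had a difference of -0.03 (adjusted p = 0.951). The summed level of that list was 13.6 to 26.8 CPM at 8 months and 17.2 to 73.8 CPM at 24 months. Haemoglobin and other erythroid genes, which come with blood in the tissue, had all 6 tested members above 0, a median of 0.40 and no call, with sums of 274 to 1100 CPM and 495 to 1980 CPM. The part of blood cells in the S100a8 and S100a9 values was not tested. Macrophage markers had 13 of 14 members above 0 and a median of 0.32, none past the threshold, and none of 10 T lymphocyte markers reached the filter, the list summing to at most 3.55 CPM in any old mouse.

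**Figure D4:**
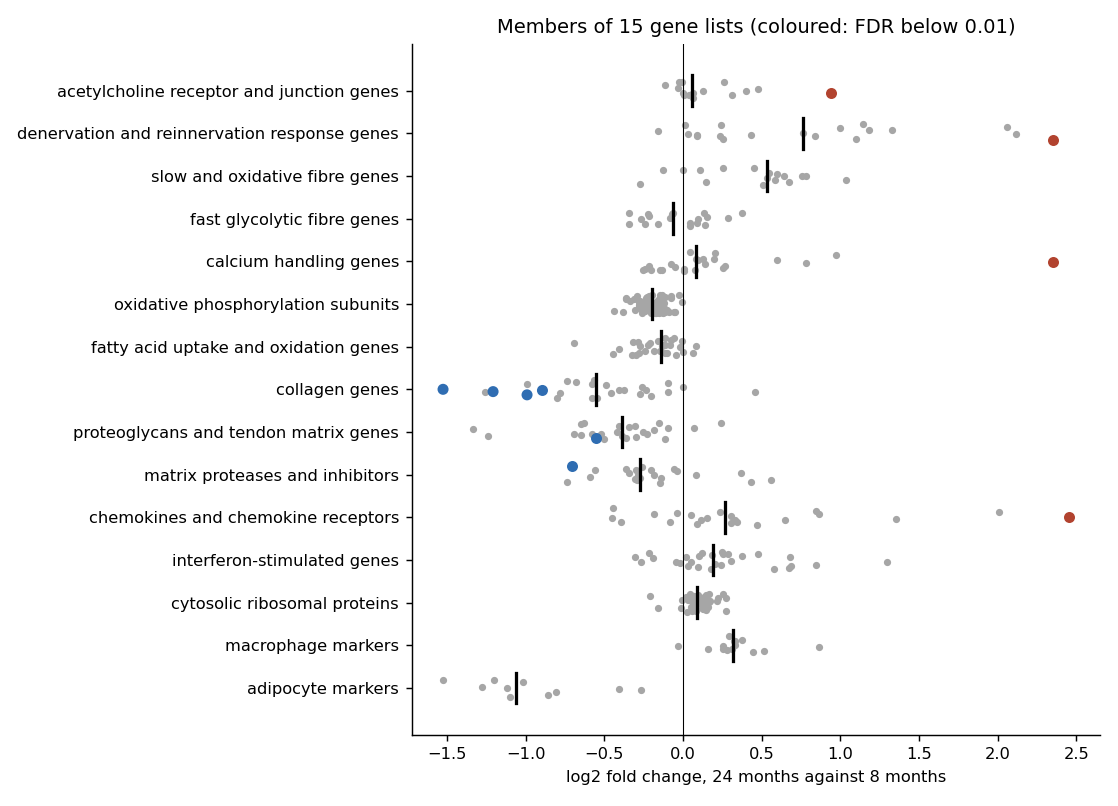
Each point is the log2 fold change of 1 tested member of 15 gene lists, the black bars are list medians, and coloured points passed an adjusted p of 0.01. The denervation list has the highest median of those drawn (0.76) and the adipocyte markers the lowest (-1.06), and the coloured points are few.

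Most of the other pathways examined held no call at this age, and their median differences stand in parentheses. None passed of 20 muscle ubiquitin ligases and FoxO factors (median 0.04), 34 autophagy genes (0.07), 31 proteasome subunits (0.05), 41 splicing regulators (0.05), 51 cytosolic ribosomal proteins (0.09), 28 interferon-stimulated genes (0.19), 23 genes of MHC and antigen presentation (0.20), 29 genes of the IL-6 family and JAK-STAT (0.18), 24 of insulin and IGF signalling (0.13), 31 of myostatin, activin and BMP signalling (0.01), 21 myogenic regulators (-0.02) and 18 circadian clock genes (0.10). Nor did any of 28 p53 target and cell cycle arrest genes (-0.03), 23 integrated stress response genes (-0.06), 20 heat shock genes (-0.08), 18 complement genes (0.11), 16 NAD metabolism genes (-0.11), 8 metallothionein and zinc genes (0.02), 27 glycolysis and glycogen genes (-0.09) or 18 amino acid transporters (-0.01). Among markers of other cells, none passed of 10 endothelial (-0.09), 9 smooth muscle and pericyte (-0.21), 6 satellite cell (-0.13) or 2 cartilage and bone genes (-0.06). Cdkn1a, the p21 arrest gene, was at 7.59 to 22.5 CPM in young and 21.0 to 59.3 CPM in old mice, with 6 of them above the young range, and did not pass (adjusted p = 0.0908, with means of 15.4 and 30.8 CPM). Mt2, a metallothionein, differed by 0.41 ± 0.55 (adjusted p = 0.715), and Nmrk2, the muscle nicotinamide riboside kinase, by -1.19 ± 0.51 (adjusted p = 0.182), with 7 old mice below the young range of 146 to 281 CPM. In all, 26 of the 35 gene lists had no member past the threshold, and 62 of the 77 genes were in none of the gene and marker lists.

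The other genes named here, chosen only because they passed the test, had these changes. At under 3 CPM in most mice, Erc2, an active zone scaffold of nerve terminals, rose by 1.96, Frem2, a basement membrane protein, by 1.61, Gabrr1, a GABA receptor subunit, by 1.32, and the unnamed transcripts Gm7609 and Gm12514 by 2.04 and 1.84. Stum, a membrane protein, rose by 1.44, Sh2d4a, an SH2 adaptor, by 0.89, Tnfrsf23, a decoy receptor for TRAIL, by 0.83, Fam19a5, a secreted peptide gene, by 0.83 and Gstm2, a glutathione transferase, by 0.81. Ide, the insulin-degrading enzyme, rose by 0.80 from 135 to 181 CPM to 183 to 357 CPM without overlap. Smaller increases were those of Neu2, a sialidase (0.71), Galnt17, a glycosyltransferase (0.63), Rasd2, a small GTP-binding protein (0.53), Aldh1a1, a retinal dehydrogenase (0.50), Lmo7, a LIM domain protein (0.50), Myl12a, a myosin regulatory light chain (0.48), Tmco4 (0.44), Sept11, a septin (0.40), Ivd, an enzyme of leucine breakdown (0.37), and Eloa, a transcription elongation subunit (0.28). Decreases were those of Ptger3, a prostaglandin E receptor (-1.59), Snph, which anchors mitochondria in axons (-1.12), Gem, a GTP-binding inhibitor of calcium channels (-1.07), Tmtc4 (-0.92), Fam229b (-0.86), Rom1, a membrane protein known from photoreceptors (-0.77), Il1rl2, the IL-36 receptor (-0.77), Sult5a1, a sulfotransferase (-0.77), Msrb1, a methionine sulfoxide reductase (-0.73), Echdc3 (-0.65), Ntmt1, an amino-terminal methyltransferase (-0.62), Cacng7, a calcium channel gamma subunit (-0.58), Fcgrt, the neonatal Fc receptor (-0.46), Itfg1 (-0.34) and the transcripts 2810414N06Rik (-0.91) and A930005H10Rik (-0.54).

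To place the 24-month muscle on the time course, it was compared with the next younger age, 22 months. The next older age, 26 months, is as near and was not tested against it here. Between 24 and 22 months, 0 of 12586 genes passed edgeR's quasi-likelihood test (0.0%), 478 had an unadjusted p below 0.05 (3.8% of those tested). That number was 920 with no filter, 892 with the mice of these ages alone and 1289 with a replicate block in them, and the highest count past the threshold in those fits was 0. These fits kept other sets of genes, so their numbers are not shares of the 12586. The likelihood ratio test of edgeR, DESeq2 and limma on TPM also called 0. The comparisons of 18, 22, 24, 26 and 28 with 8 months all use the same 8 young mice, so their values stand here side by side without a test of likeness. Chrna1 differed from 8 months by 0.15 at 18 months, 0.50 at 22 months, 0.94 at 24 months, 0.93 at 26 months and 1.27 at 28 months. Col3a1 differed by -0.40, -0.68, -1.53, -1.90 and -2.29 at these ages. For Amy1, the differences were 0.52, 0.78, 1.02, 1.29 and 1.40. Sln followed with 0.68, 1.91, 2.35, 3.54 and 4.25. The mean of Cxcl13 was 3.22 ± 2.82 CPM (SD, n = 8) at 24 months and 24.7 ± 29.4 CPM at 26 months, and Mt2 had means of 14.7 and 56.1 CPM at these ages, values given here without a test. At 8 months these means were 0.776 and 11 CPM.

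**Figure D5:**
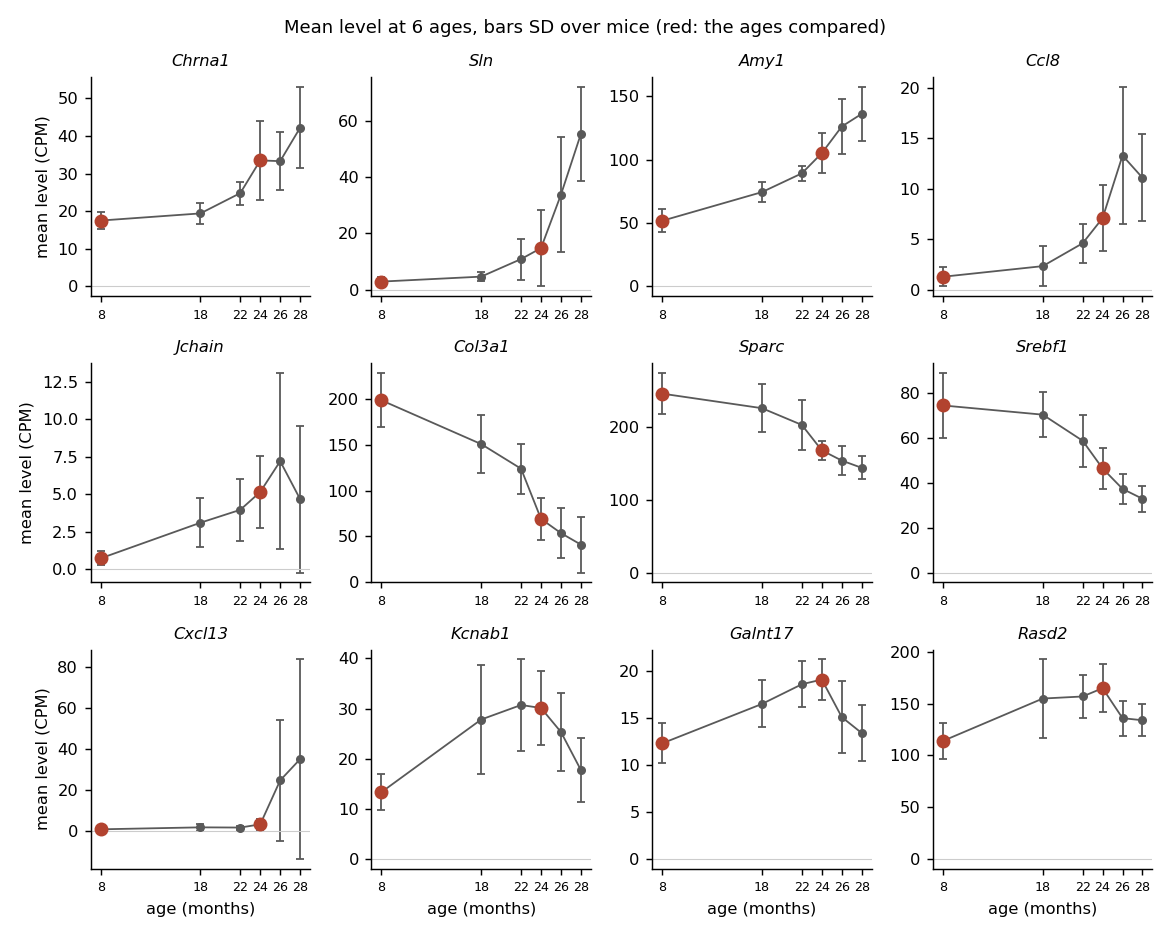
Points are mean levels in CPM at each of the 6 ages, bars are SD over the mice of that age, and red marks the ages compared. The mean levels of Chrna1, Sln and Amy1 are highest and those of Col3a1, Sparc and Srebf1 lowest at 28 months, whereas Kcnab1, Galnt17 and Rasd2 have their highest means at 22 or 24 months.

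The 77 genes were then read in pairs of other ages. By the paper's account, the 18-month mice had the same diet schedule as the young group. The 22-, 26- and 28-month mice had that of the 24-month group. Age and diet schedule therefore differ together between 26 and 18 months, whereas the 28- and 22-month mice share a schedule. The part of diet in these comparisons was not tested. The 18-, 22-, 26- and 28-month mice were in neither compared group, but they entered the filter and the shared estimate of the spread that called the 77, so these mice were not separate from the calls. Between 26 and 18 months, 1268 of 12586 genes passed (10.1%), and 52 of the 77 passed in the direction of their change at 24 months, 23 of the 40 higher genes (5.39% of all genes passed upwards) and 29 of the 37 lower ones (4.68% passed downwards). Between 28 and 22 months, 3485 genes passed (27.7%), and 47 of the 77 did so in their direction, 29 of the 37 lower genes (11.5% of all genes passed downwards) and 18 of the 40 higher ones (16.2% passed upwards). The sign was the same for 72 of the 77 in each comparison, whereas 50.5% and 50.8% of all genes were above 0. The higher genes had a median difference of 0.67 between 26 and 18 months and 0.40 between 28 and 22 months, and the lower genes of -0.72 and -0.70. Fully separate were calls from the 16 mice alone read in a fit of the 34 other mice alone, in which 73 of 150 genes passed in their direction between 26 and 18 months, where 5.0% of all genes passed, and 89 of 150 between 28 and 22 months, where 23.2% passed.

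A few genes that rose by 24 months did not go on. Kcnab1 had means of 13.3 ± 3.5 CPM at 8 months, 27.8 at 18, 30.7 at 22, 30.1 ± 7.5 at 24, 25.3 at 26 and 17.7 CPM at 28 months, and it fell between 22 and 28 months by 0.80 (adjusted p = 3.33e-03). Galnt17 had means of 12.3 ± 2.1 CPM in the young mice and of 19.1 ± 2.1 CPM in the 24-month mice, and fell between 22 and 28 months by 0.47 (adjusted p = 2.05e-03), to 13.4 CPM. These 2 were the only genes of the 77 that passed in the opposite direction there. Rasd2 had a difference of -0.23 between 28 and 22 months (adjusted p = 0.0695). Scd2 had means of 47.3 CPM at 18 months, 32.7 at 22 and 27.3, 25.7 and 25.9 CPM at 24, 26 and 28 months.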

How the data were processed

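RNA was sequenced from gastrocnemius muscle with a stranded poly(A) library kit. The authors trimmed reads with cutadapt 1.9.1 and quantified transcripts on GRCm38 with kallisto 0.43.1, as the submitters' processing notes list, and deposited 1 table of estimated counts per gene and 1 table of TPM, which is scaled for transcript length and library, for the 50 mice. A read that mapped to several transcripts was split in equal parts among them, so counts of near-identical paralogs are uncertain. All columns were mapped to mice by title, and the number of unused columns was 0.

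The deposited counts were used as given, and genes with 1 CPM or more in 8 or more of the 50 mice were kept. Then 1 model with a mean for each age was fitted to all 50 mice with edgeR 4.0.16 (TMM factors, quasi-likelihood F-test, Benjamini-Hochberg) in R 4.3.3. All 50 mice share 1 estimate of the spread, as fixed for the comparison of 24 with 8 months. Standard errors are the log2 fold change divided by the square root of F. Alternatives were upper-quartile and RLE factors, no filter, a filter on the 16 mice, a fit of the 16 mice alone, edgeR's likelihood ratio test, DESeq2 1.42.0, limma 3.58.1 on log2(TPM + 1) and log2(TPM + 0.1), counts thinned to the smallest total of 13607229, a replicate block, and leaving out each of 16 mice. Total counts were compared by an exact permutation test over 12870 regroupings (scipy 1.17.1).

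Mice of 1 age differed by 6.957 to 110.7 times the variance of counting, so no library was a copy of another. Depth was 13607229 to 20515435 counts per mouse, and intervals beyond the replicate spread were not computed. Genes were named by rule: the 12 largest increases and 12 largest decreases past the threshold with a mean of at least 5 CPM at the higher age, the 6 lowest p-values, up to 2 members past the threshold per gene list, and 21 fixed names, with the other genes past the threshold added after their values were seen. Of the genes past the threshold, 2 are not reported here by name. Where 38 symbols had more than 1 identifier, the one with the higher mean was used. The members, gene lists and markers were chosen with earlier results of these data known, and none is independent support. Coordinates are from GENCODE vM21 (GRCm38), and promoter windows from RefSeq (GRCm38.p6), read without the bases after the start.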

Additional observations from a re-analysis of the deposited data

Results flagged for a closer look

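The values of 1 mouse stood apart from the other 7 of its age in 14 of 156 groups of values (8.97%). A chance share of about 1 in 20 would hold for independent, normally distributed values. These groups are CPM levels of genes measured in the same mice, so their chance share is not known. A mouse was counted where the gap to its nearest neighbour was more than 0.526 of the group's range. No explanation of these values was tested.

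At 24 months, mouse 1 was highest for Sln (45.5 CPM, next 21.0), Chrna1 (55.3 CPM, next 38.5) and Tnfrsf23 (17.2 CPM, next 11.9). Mouse 2 was highest for Olfml2b (7.93 CPM, next 5.74) and Frem2 (3.39 CPM, next 1.98). Mouse 3 was highest for Tmtc4 (2.87 CPM, next 1.66) and Echdc3 (6.91 CPM, next 4.67), and mouse 8 for Ppp1r1a (68.5 CPM, next 50.1). For Olfml2b, Tmtc4 and Echdc3, which fell with age, the high mouse lay nearest to the young values.

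At 8 months, mouse 1 was highest for Fam174b (7.38 CPM, next 4.16), Dpt (97.8 CPM, next 76.8) and Gm12514 (0.714 CPM, next 0.271). Mouse 2 was highest for Chrna1 (22.1 CPM, next 18.2). Mouse 3 was highest for Myl12a (349 CPM, next 247) and lowest for Col5a2 (27.4 CPM, next 35.9). The 2 mice that carried the S100a9 level at 24 months did not stand apart by this measure, since there were 2 of them.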

How the results depend on the processing

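The 77 genes kept their direction in all 27 alternatives, and 31 passed in each. The number that passed was 178 with the likelihood ratio test (79 higher, 99 lower), 150 with the 16 mice alone (66 and 84), 190 with DESeq2 (93 and 97) and 129 with a replicate block in the 16 mice (63 and 66). The labels do not say whether the replicate numbers pair mice, and a shared batch was not tested. Same-numbered mice of 8 and 24 months had deviations that correlated between -0.28 and 0.36, and only number 3 correlated best with its own. Between 22 and 24 months, numbers 2 and 3 correlated best with their own. Counts were within 1.5 times of 77 with upper-quartile factors (82), RLE factors (77), no filter (88), the filter on the 16 mice (76), limma on log2(TPM + 1) (81) and on log2(TPM + 0.1) (76) and thinned counts (76). Leaving out 1 mouse gave 47 to 87 genes, 28 to 46 higher and 18 to 44 lower, and 94 to 174 genes whose ages did not overlap, a number that grows by construction with fewer mice. The 24 against 22 month comparison gave 0 in each setting and 0 to 0 with a mouse left out. The difference in total counts was -3363980 to -2582180 with a mouse left out, and the highest p of these exact permutation tests was 0.0131. Of the 150 genes called in the 16 mice alone, 48.7% passed in their direction between 26 and 18 months and 59.3% between 28 and 22 months, against 67.5% and 61.0% of the 77. The cause of these shifts was not tested. Precision is limited by 8 mice per age.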
